A study of Mus musculus with 13 samples.

Results

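The nuclear receptors Esrrb, Nr5a2, Nr0b1 and Rara were followed across 13 arrays that set NT1 RNA against TBV RNA. They were taken as the rows of the deposited value table whose probe annotation gives exactly 1 gene symbol and that symbol is a member. This gave 6 probes for 4 genes, of 20205 probes in all and of 9669 genes with a symbol of their own: 1 probe each for Esrrb and Nr0b1, and 2 each for Nr5a2 and Rara. The study hybridised mouse total RNA on 2-colour arrays. Each array held an NT1 source in one dye and a TBV source in the other, with NT1 in Cy5 on 7 arrays and TBV in Cy5 on 6. The series title gives Sall4 as -/- beside NT1, and states no genotype for TBV. Sall4 is a pluripotency gene whose protein carries zinc fingers. A mouse embryonic stem cell line goes by the name TBV2, but no label states a cell type, growth condition, clone number or sex.

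The sources formed 4 pairs: 5 arrays held NT1p14 with TBVp13 and 4 held NT1p12 with TBVp12, while NT1 1 with TBV2, and also NT1p12 with TBVp13, were on 2 each. The labels speak of different passages, so p14, p13 and p12 were read as passage 14, 13 and 12. The first 3 pairs share no source name and served as the replicates. They are called independent on that ground only. The labels give no passage for NT1 1 or TBV2 and do not say that their RNA differs from the other sources. The last pair reuses a source of each of the first 2 and is shown by value. Each value below is a log2 ratio of NT1 over TBV after centring the array on its median, so a value below 0 means a lower signal in NT1. The log base and the numerator are not given in the sources used here. The sign of the whole table therefore rests on reading it as Cy5 over Cy3. Over the table, NT1p14 with TBVp13 stood against NT1p12 with TBVp12 at a Pearson correlation of -0.50 for 15973 probes, which are not independent replicates. NT1 1 with TBV2 stood at 0.12 against NT1p14 with TBVp13 and at -0.02 against NT1p12 with TBVp12. Such correlations do not show that a pair is reversed, and they do not settle the direction of either pair. Values with a pair turned are given where they bear on a receptor.

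Part of the table had lost its decimals. Of 220028 values 19.3% were whole numbers, between 2.40% and 40.4% per array. Only 79 values of size 1 or more had decimals, against 27875 of size 0.5 to 1. Whether the decimals were rounded or cut off is not known. A -1 or a 0 in such a row stands for a range of ratios. Between 14314 and 18381 probes had a value on each array. The table holds ratios and no intensities, so the level of a receptor in either line, and whether the pluripotency genes were on, cannot be read from it.

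Nuclear receptors are transcription factors that bind DNA through a pair of zinc fingers and take up cofactors through a ligand-binding domain. Esrrb, the oestrogen-related receptor beta, and Nr5a2, the liver receptor homologue also called Lrh-1, are orphan receptors of the pluripotency network of mouse embryonic stem cells, and both bind DNA as single molecules at an extended AGGTCA element. Nr5a2 is known there as an activator of Pou5f1, the gene of Oct4. Nr0b1, also called Dax1, lacks the zinc finger domain and acts mostly as a repressor that binds other receptors and Oct4. Rara, the retinoic acid receptor alpha, pairs with a retinoid X receptor and carries the retinoic acid signal that drives embryonic stem cells out of the undifferentiated state.

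The promoters are shown because these receptors can bind at each other's genes. RefSeq (GRCm38.p6) gave 2 starts for Esrrb, 2 for Nr5a2, 1 for Nr0b1 and 4 for Rara. The 250 bases before each start were searched on both strands for the receptor core element AGGTCA and for the extended element TCAAGGTCA, which holds the core element within it. The core element lay within this window in 14.02% of 32851 mouse promoters and the extended element in 0.387%. It was found before 1 of the 2 Nr5a2 starts and before the Nr0b1 start, and at 0 of the Esrrb and 0 of the Rara starts. The extended element was found at 0 of the 9 starts. A match in letters is not a bound site, and its absence here concerns only these windows. The window with the most core elements is given for each gene, or the start farthest upstream where none had it, read 5′ to 3′ along the gene, with the core element in capitals. They lie at chr12:86360867-86361116 (plus strand) for Esrrb, chr1:136960449-136960698 (minus strand) for Nr5a2, chrX:86191525-86191774 (plus strand) for Nr0b1 and chr11:98937446-98937695 (plus strand) for Rara. The element began 64 bases before the start of Nr5a2 and 126 bases before that of Nr0b1.
Esrrb: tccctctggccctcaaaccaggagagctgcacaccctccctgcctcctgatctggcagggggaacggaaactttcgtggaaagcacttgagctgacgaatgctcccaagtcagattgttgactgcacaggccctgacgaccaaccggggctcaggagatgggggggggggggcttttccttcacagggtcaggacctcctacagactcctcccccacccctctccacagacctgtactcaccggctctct
Nr5a2: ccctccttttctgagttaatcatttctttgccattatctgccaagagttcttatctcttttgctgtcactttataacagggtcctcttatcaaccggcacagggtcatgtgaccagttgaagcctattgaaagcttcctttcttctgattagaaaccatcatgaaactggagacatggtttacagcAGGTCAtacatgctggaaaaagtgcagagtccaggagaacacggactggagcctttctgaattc
Nr0b1: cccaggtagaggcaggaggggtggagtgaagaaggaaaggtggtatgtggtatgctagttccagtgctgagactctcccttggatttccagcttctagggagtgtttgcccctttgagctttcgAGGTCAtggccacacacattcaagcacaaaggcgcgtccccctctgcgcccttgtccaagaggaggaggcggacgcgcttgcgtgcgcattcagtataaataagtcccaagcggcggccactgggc
Rara: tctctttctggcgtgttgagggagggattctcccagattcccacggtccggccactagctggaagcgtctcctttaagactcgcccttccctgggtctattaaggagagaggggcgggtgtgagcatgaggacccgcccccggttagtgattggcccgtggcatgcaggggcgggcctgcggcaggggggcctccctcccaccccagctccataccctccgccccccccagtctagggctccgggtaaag

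The first comparison asked how the receptors differed between NT1 and TBV. None of the 5 member probes with a value in all 3 pairs passed the threshold (limma over 15973 probes, adjusted p = 1.00 for each). Over all probes 0 passed, or 0% called, and 164 had an unadjusted p under 0.05, of which 70 were lower in NT1. By value, Rara probe 7761 lay lowest, at about 0.44 times its TBV signal, and Esrrb lay modestly below 0. The Rara figure is coarse, as 12 of its 13 values were whole numbers. Nr0b1 and Nr5a2 probe 19027 changed side between the pairs. Below 0 in all 3 pairs were 3 of the 5 probes, for Esrrb, Nr5a2 probe 19667 and Rara probe 7761, against 5.33% of all probes tested. If NT1p14 with TBVp13 is turned, it was 2 of the 5 against 14.3% of all probes. With either other pair turned it was 0 of the 5, against 22.7% for NT1p12 with TBVp12 and 4.91% for NT1 1 with TBV2. The members and gene lists were chosen with earlier results of these data known. Their shares, here and below, are thus no independent evidence. In bulk RNA a smaller share of cells with a transcript and less of it per cell cannot be told apart.

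**Figure D1:**
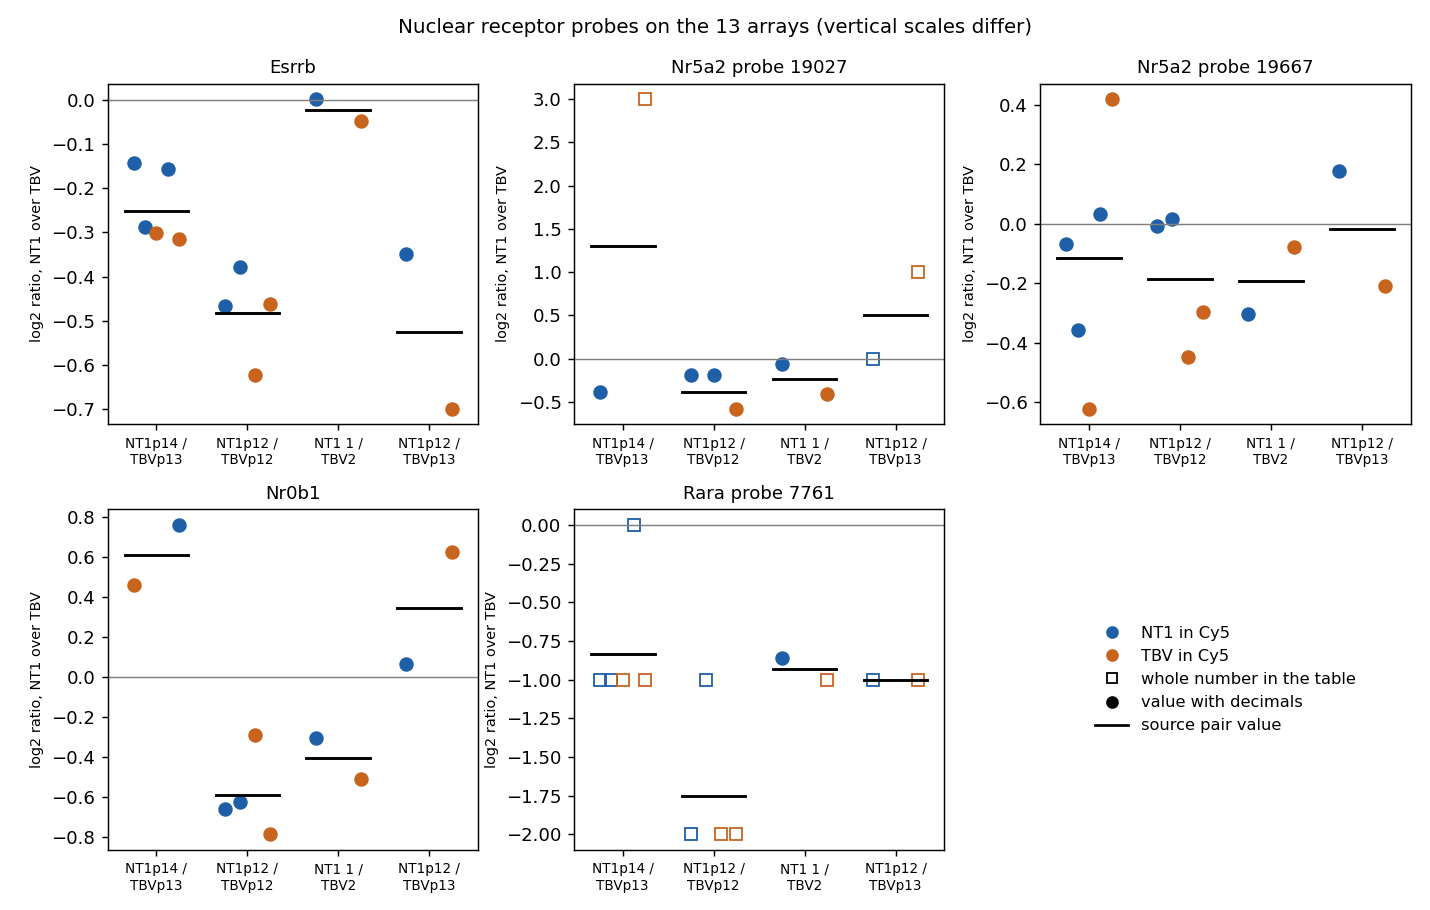
Log2 ratio of NT1 over TBV (vertical axis, scales differ) for 5 receptor probes on each array, by source pair. Circles are values with decimals, open squares whole numbers, blue NT1 in Cy5, orange TBV in Cy5, and black lines the pair values. The pair lines of Esrrb, Nr5a2 probe 19667 and Rara probe 7761 lie below 0 in every pair. The arrays of Nr0b1 lie above 0 in both pairs with TBVp13 and below 0 in the other 2.

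Esrrb read -0.14, -0.29, -0.30, -0.16 and -0.31 on the 5 arrays of NT1p14 with TBVp13. On the 4 arrays of NT1p12 with TBVp12 it read -0.47, -0.38, -0.62 and -0.46, so that these 2 sets of arrays did not overlap. The difference between these 2 pairs did not pass (limma on arrays, adjusted p = 0.158). NT1 1 with TBV2 gave 0.00 and -0.05, both above all arrays of the other pairs, and NT1p12 with TBVp13 gave -0.35 and -0.70. The share of all probes whose arrays lay apart in these ways was not counted. In all, 12 of 13 arrays were below 0 after centring, and the remaining value, 0.0015, was close to 0. None of the Esrrb values was a whole number, so its ratios kept their decimals throughout.

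For Esrrb, NT1p14 with TBVp13 averaged -0.25, NT1p12 with TBVp12 averaged -0.48 and NT1 1 with TBV2 averaged -0.02. Their mean was -0.25 ± 0.23 (SD, n = 3), about the size of that SD (limma, adjusted p = 1.00, unadjusted p = 0.141). The 2 pairs with NT1p12 were the lowest, at -0.52 with TBVp13 and -0.48 with TBVp12. The array range of NT1p12 with TBVp13 overlapped those of NT1p12 with TBVp12, so these neighbours in the order do not differ beyond their spread. Both dye orientations lay below 0, at -0.21 on the arrays with NT1 in Cy5 and -0.30 on those with TBV in Cy5. The mean without NT1p12 with TBVp12 was -0.14. With the signs of that pair turned it was 0.069, and with NT1p14 with TBVp13 turned it was -0.08.

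Rara was measured by 2 probes of unequal use. Probe 6175 had a value on 2 arrays only, -1 on array 1 of NT1p12 with TBVp12 and 0 on array 2 of NT1p12 with TBVp13, and was not tested. Probe 7761 had a value on all 13. It read -1 on 4 arrays of NT1p14 with TBVp13 and 0 on array 4. In NT1p12 with TBVp12 it read -2 on arrays 1, 3 and 4 and -1 on array 2. NT1 1 with TBV2 gave -0.86 and -1, and both arrays of NT1p12 with TBVp13 gave -1. It lay below 0 on 12 of 13 arrays and above 0 on none, and 12 of its 13 values were whole numbers.

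The pair values of Rara probe 7761 were -0.83 for NT1p14 with TBVp13, then -1.75 for NT1p12 with TBVp12, then -0.93 for NT1 1 with TBV2. Their mean was -1.17 ± 0.50 (SD, n = 3), the 6th lowest of 15973 probes. It did not pass (limma, adjusted p = 1.00), and its unadjusted p was the 3rd smallest of all probes. With 1 pair turned the mean was -0.62 for NT1p14 with TBVp13, -0.00 for NT1p12 with TBVp12 and -0.55 for NT1 1 with TBV2. With whole numbers left out, probe 7761 had a single value and gave no ratio. Since steps of a whole unit are as large as the differences between its pairs, the order of the pairs is coarse.

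In a fit on all 13 arrays, in which the source pair was a random block beside the dye, Rara passed at -1.15 (limma, adjusted p = 0.00983) and was 1 of 3 probes called lower in NT1, 0.0188% of those tested. That fit takes repeats of 1 RNA as data points. It was made on Cy5 over Cy3 ratios, where a pair's own NT1 difference has opposite signs in the 2 dye orientations. The block thus does not carry that difference, and the within-pair correlation of -0.16 does not measure it. The p-values of the fit are too small for new preparations. Esrrb stood at -0.33 in the same fit and did not pass (limma, adjusted p = 0.155). Of the 3 member probes with a value on every array, 2 were below 0 on at least 12 arrays, Esrrb and Rara probe 7761, against 0.298% of 11078 such probes. With 1 pair turned it was 0 of the 3 for NT1p14 with TBVp13, 0 for NT1p12 with TBVp12, 1 for NT1 1 with TBV2 and 0 for NT1p12 with TBVp13. Of the 11078 probes it was then 0.424%, 1.53%, 0.135% and 0.0542% in the same order. As the members were chosen with earlier results of these data known, their share is no independent evidence.

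Nr0b1 had a value on 10 arrays, all with decimals. In NT1p14 with TBVp13 it read 0.46 and 0.76 on the 2 arrays that measured it. In NT1p12 with TBVp12 the 4 arrays gave -0.66, -0.63, -0.29 and -0.79. It stood at -0.31 and -0.51 in NT1 1 with TBV2 and at 0.07 and 0.62 in NT1p12 with TBVp13. The 4 arrays with TBVp13 were all above 0 and the 6 others all below, with no overlap. By pair values, 5.37% of 7304 genes lay above 0 in both pairs with TBVp13 and below 0 in the other 2. The Nr0b1 pair values of 0.61, -0.59 and -0.41 gave a mean of -0.13 ± 0.65 (SD, n = 3), and the probe did not pass (limma, adjusted p = 1.00). The mean took the other sign, 0.10, without NT1p12 with TBVp12, was 0.01 without NT1 1 with TBV2, and was -0.50 without NT1p14 with TBVp13. With the signs of 1 pair turned it was -0.54 for NT1p14 with TBVp13, 0.26 for NT1p12 with TBVp12 and 0.14 for NT1 1 with TBV2.

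The 2 probes of Nr5a2 disagreed. Probe 19667, with decimals on all 13 arrays, had pair values of -0.12, -0.18 and -0.19, in the same order of pairs as for Rara. Their mean was -0.16 ± 0.04 (SD, n = 3), and it did not pass (limma, adjusted p = 1.00). The pairs were closer to each other than the arrays within them. In NT1p14 with TBVp13 its arrays ran from -0.62 to 0.42 with a median of -0.07, and in NT1p12 with TBVp12 from -0.45 to 0.02 with a median of -0.15. It was below 0 on 9 of 13 arrays.

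Nr5a2 probe 19027 had a value on 9 arrays. In NT1p14 with TBVp13 it read -0.39 on array 1 and 3 on array 5, a whole number, and nothing on the others. The 3 arrays of NT1p12 with TBVp12 gave -0.19, -0.19 and -0.58, NT1 1 with TBV2 gave -0.06 and -0.41, and NT1p12 with TBVp13 gave 0 and 1. The reading of 3 alone put its mean at 0.23 ± 0.94 (SD, n = 3), and without NT1p14 with TBVp13 the mean was -0.31. On arrays scaled to a common SD it was -0.070. With both probes averaged Nr5a2 stood at -0.10 ± 0.24 (SD, n = 3).

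**Figure D2:**
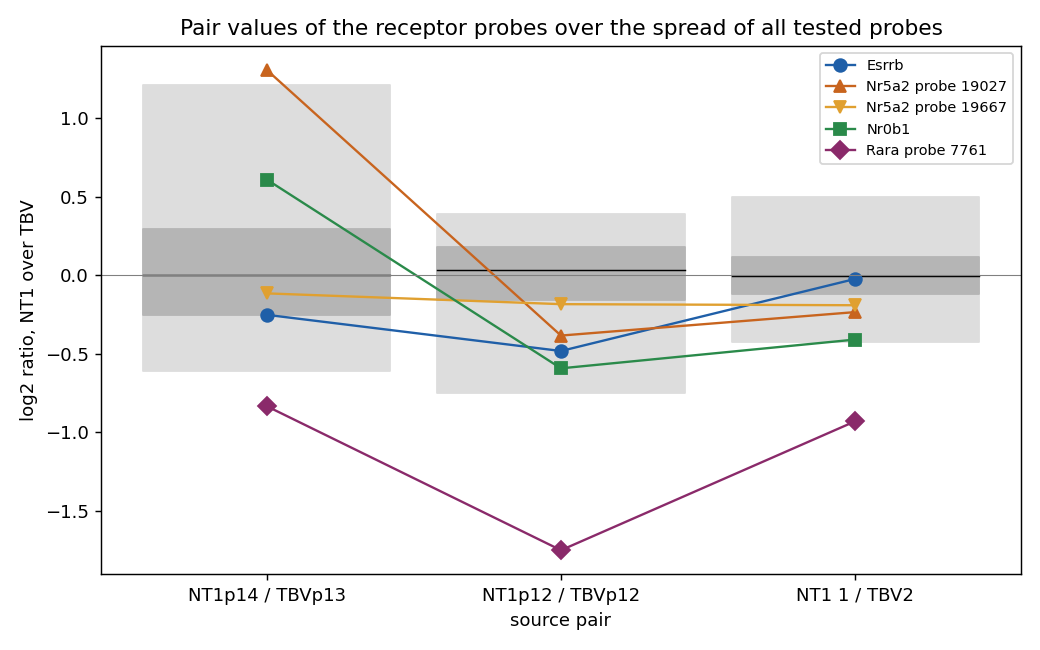
Log2 ratio of NT1 over TBV (vertical axis) of 5 receptor probes in the 3 independent source pairs (horizontal axis). Dark bands hold the middle 50% and light bands the middle 95% of 15973 probes, with the median as a line. Rara probe 7761 lies under the light band in each pair, at -0.83, -1.75 and -0.93.

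Averaged over the 3 pairs, the dye effect was small for 4 of these probes. The part of the Cy5 over Cy3 ratio common to both orientations averaged 0.05 ± 0.02 (SD, n = 3) for Esrrb, 0.07 ± 0.11 for Nr0b1, 0.02 ± 0.15 for Nr5a2 probe 19667 and 0.16 ± 0.09 for Rara probe 7761. It was -0.44 ± 1.08 for Nr5a2 probe 19027, again through array 5 of NT1p14 with TBVp13. A single orientation therefore gave Rara -1.01 with NT1 in Cy5 and -1.33 with TBV in Cy5, and Nr5a2 probe 19027 -0.21 and 0.67.

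The second comparison set NT1p14 with TBVp13 against NT1p12 with TBVp12, as the labels name different passages. It was fitted on the arrays, dye included. The p-values measure the error of arrays only, since each pair is 1 preparation of each line. Nr0b1 was higher in NT1p14 with TBVp13 by 1.20 ± 0.24 (SE), with pair values of 0.61 and -0.59 (limma, adjusted p = 0.0217). Rara probe 7761 was higher there by 0.92 ± 0.25 (SE), that is, less far below 0 at -0.83 and -1.75 (limma, adjusted p = 0.0326). Its values in both pairs were all whole numbers, so its SE and p-value also carry the lost decimals. Esrrb differed by 0.23 ± 0.11 and did not pass (limma, adjusted p = 0.158). Nr5a2 differed by 0.05 ± 0.21 for probe 19667 and 1.49 ± 0.81 for probe 19027 (limma, adjusted p = 0.872 and 0.218). Over all 17525 probes 10.2% were called higher in NT1p14 with TBVp13, so the 2 of 5 receptor probes stand against that share, and 1691 probes were called lower. With NT1p14 with TBVp13 turned, the difference of the pair values would be -0.02 for Nr0b1 and 2.58 for Rara, and with NT1p12 with TBVp12 turned 0.02 and -2.58.

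Whether these calls were made depended on single arrays. Of NT1p12 with TBVp12, leaving out array 1 left 13 probes called in either direction, array 2 left 21 and array 4 left 168, against 3476 with all arrays. Of NT1p14 with TBVp13, array 4 left 2183 and array 5 left 1252. Nr0b1 no longer passed without arrays 1, 2 or 4 of NT1p12 with TBVp12 or array 4 of NT1p14 with TBVp13 (limma, adjusted p = 0.0645 to 0.0776), although its difference stayed at 0.98 to 1.20. Rara no longer passed without any of the 4 arrays of NT1p12 with TBVp12 or without array 5 of NT1p14 with TBVp13 (limma, adjusted p = 0.0507 to 0.0994). Nr5a2 probe 19027 passed at 3.29 without array 1 of NT1p14 with TBVp13 (limma, adjusted p = 0.00799) and stood at -0.053 without array 5. With arrays scaled to a common SD Nr0b1 passed (limma, adjusted p = 0.0303) and Rara did not (adjusted p = 0.159).

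**Figure D3:**
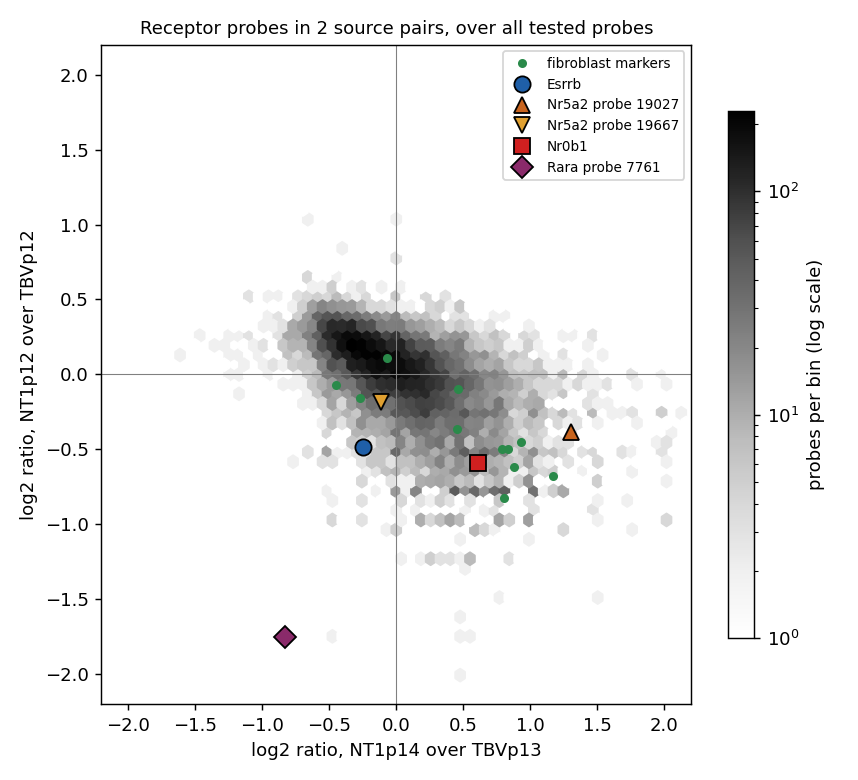
Log2 ratio of NT1p14 over TBVp13 (horizontal) against NT1p12 over TBVp12 (vertical) for 5 receptor probes and 11 fibroblast markers, over a density of all tested probes (grey, log scale; 130 of 15973 lie beyond 2.2 on either axis and are not drawn). Esrrb, Nr5a2 probe 19667 and Rara probe 7761 lie below 0 in both pairs. Nr0b1 lies at 0.61 and -0.59, in the lower right quadrant that also holds most of the fibroblast markers. Many other probes share this quadrant. Of all 15973 tested, 14.3% were there and below 0 in NT1 1 with TBV2, and 18.2% were there and above 0 in it.

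The shared sources let the passages of a line be compared by value, without a test. NT1p14 minus NT1p12, both set against TBVp13, came to 0.27 for Esrrb, 0.27 for Nr0b1, 0.17 for Rara probe 7761 and -0.10 for Nr5a2 probe 19667. TBVp13 minus TBVp12, both set against NT1p12, came to -0.94 for Nr0b1 and -0.75 for Rara probe 7761, against 0.04 for Esrrb and -0.17 for Nr5a2 probe 19667. These values depend on the direction of the pairs. With NT1p12 with TBVp12 turned, TBVp13 minus TBVp12 was 0.25 for Nr0b1, and with NT1p14 with TBVp13 turned, NT1p14 minus NT1p12 was -0.95.

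Fibroblast markers were set beside Nr0b1, since embryonic stem cells are often grown on fibroblast feeders, though the labels mention none. Of 19 listed markers 11 were measured in all pairs. Their median was 0.79 in NT1p14 with TBVp13 (range -0.45 to 1.17), -0.45 in NT1p12 with TBVp12 (-0.82 to 0.11), -0.56 in NT1 1 with TBV2 (-1.50 to 0.29) and 0.25 in NT1p12 with TBVp13 (-0.25 to 1). Nr0b1 stood at 0.61, -0.59, -0.41 and 0.34 in the same order. Above 0 in both pairs with TBVp13 and below 0 in the other 2 were 5 of the 11 markers, Col1a1, Col3a1, Vim, Acta2 and S100a4, against 5.37% of 7304 genes. This pattern was counted after the values of Nr0b1 were seen, and it depends on the direction of NT1p14 with TBVp13. With that pair turned, 7 of the 11 markers were below 0 in all 3 independent pairs (63.6% against 14.3% of all probes), and Nr0b1 was too. Thy1 was below 0 in the 3 independent pairs. Thy1, Dcn and Col6a1 were below 0 in NT1p14 with TBVp13, where Nr0b1 was above it. The part of fibroblast RNA in the Nr0b1 ratio was not tested. Esrrb and Rara probe 7761 were below 0 in NT1p14 with TBVp13, at -0.25 and -0.83. They were farther below 0 in NT1p12 with TBVp12, at -0.48 and -1.75. The part of fibroblast RNA in these ratios was not tested either.

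The genes most like each receptor were sought by Pearson correlation of the array values, a description over arrays that share RNA sources and dye. For Nr0b1, over 10 arrays, they were 4933404O12Rik at 0.97, the integrin Itgb1 at 0.96 and the collagen Col1a1 at 0.96. Itgb1 had 0.85, -0.55 and -0.61 in the 3 independent pairs and 0.50 in NT1p12 with TBVp13, close to the values of Nr0b1. Of the array values of Itgb1 and Col1a1, 5 and 9 were whole numbers. For Esrrb, over 13 arrays, they were Stat2 at 0.84, Tbpl1 at 0.82 and 1810055G02Rik at 0.82. These did not share its level: Stat2 stood at 0.16, -0.19 and 0.32. For Rara probe 7761 they were Cyb5r1 at 0.95, C2cd5 at 0.93 and Txn1 at 0.91, which were likewise above 0 in NT1p14 with TBVp13 and in NT1 1 with TBV2. For Nr5a2 probe 19667 they were Triml1 at 0.84, Epc1 at 0.84 and Commd4 at 0.81. For Nr5a2 probe 19027, over 9 arrays, Cthrc1 at 0.97, Plaat1 at 0.97 and Bdh1 at 0.95 shared its high reading on array 5 of NT1p14 with TBVp13.

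Among themselves the receptors did not follow 1 pattern. Over shared arrays Pearson's r was 0.57 between Esrrb and Rara probe 7761 (13 arrays) and 0.68 between Nr0b1 and Rara probe 7761 (10 arrays), and -0.04 between Esrrb and Nr0b1. The 2 Nr5a2 probes correlated at 0.66 over 9 arrays. Nr0b1 and Nr5a2 probe 19027 correlated at 0.93 over 7 arrays, and Nr0b1 and Nr5a2 probe 19667 at -0.09 over 10. None of the 7 was an array of NT1p14 with TBVp13. On the arrays of NT1p12 with TBVp13, probe 19027 read the whole numbers 0 and 1.

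The third comparison placed these receptors among the rest of their family and the genes around them. Of 49 listed nuclear receptors 29 had a value in all 3 pairs, and 0 passed (limma, per gene). Their mean ratio was below 0 for 14 and above 0 for 15, with a median of 0.00 as over all 7978 genes. Below 0 in all 3 pairs were 3 of the 29, Rara, Esrrb and the glucocorticoid receptor Nr3c1 at -0.10 ± 0.07 (SD, n = 3), or 10.3% against 5.72% of all genes. Without the 4 members it was 1 of 25, or 4%, so the higher share came from the chosen members. With NT1p14 with TBVp13 turned, 6 of the 29 were below 0 in all 3 pairs (20.7% against 14.3% of all probes). With NT1p12 with TBVp12 turned it was 6 (20.7% against 22.7%), and with NT1 1 with TBV2 turned 0 (against 4.91%). Above 0 in all 3 were Esr1, an oestrogen receptor, at 0.12 ± 0.15 and Nr1i2, the pregnane X receptor, at 0.11 ± 0.16. Both rest on averaged probes. The 2 Esr1 probes disagreed, at 0.55 and -0.01 in NT1p14 with TBVp13. The Nr1i2 probe with a value in every pair (334) read -0.74, 0.05 and 0.29 there, a mean of -0.13, and the other (19021) had 4 values, 3 of them whole.

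Rara at -1.13 (both probes averaged) and Esrrb at -0.25 had the lowest means of the 29, as also with NT1 1 with TBV2 turned. With NT1p14 with TBVp13 turned Rara was 4th lowest at -0.57 and Esrrb 15th at -0.084, behind Nr2c1 at -1.31 and Esr2 at -1.12. With NT1p12 with TBVp12 turned they were 13th at -0.046 and 16th at 0.069. The highest were Esr2 at 1.13 ± 1.95 (SD, n = 3) and the orphan receptor Nr2c1 at 1.07 ± 2.17. Each came from NT1p14 with TBVp13 alone, at 3.38 and 3.56, against -0.14 and -0.41 in NT1p12 with TBVp12. The close relatives of Rara did not share its values. Rarg, the gamma receptor, stood at 0.62, -0.40 and -0.52 in the 3 pairs, and Rarb lacked a value in NT1p14 with TBVp13 and was at 0.01 and 0.07 in the other 2. Its partners Rxra and Rxrb stood at -0.21 ± 0.30 and 0.09 ± 0.82. Rxra probe 1280, with decimals on all 13 arrays, averaged -0.01, and the other Rxra probe (19029) held 8 values, all whole. Esrra, the alpha relative of Esrrb, was at 0.02 ± 0.12, and Nr5a1, the relative of Nr5a2, at 0.23 ± 0.53. Nr0b2, the relative of Nr0b1, was at 0.08 ± 0.36.

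**Figure D4:**
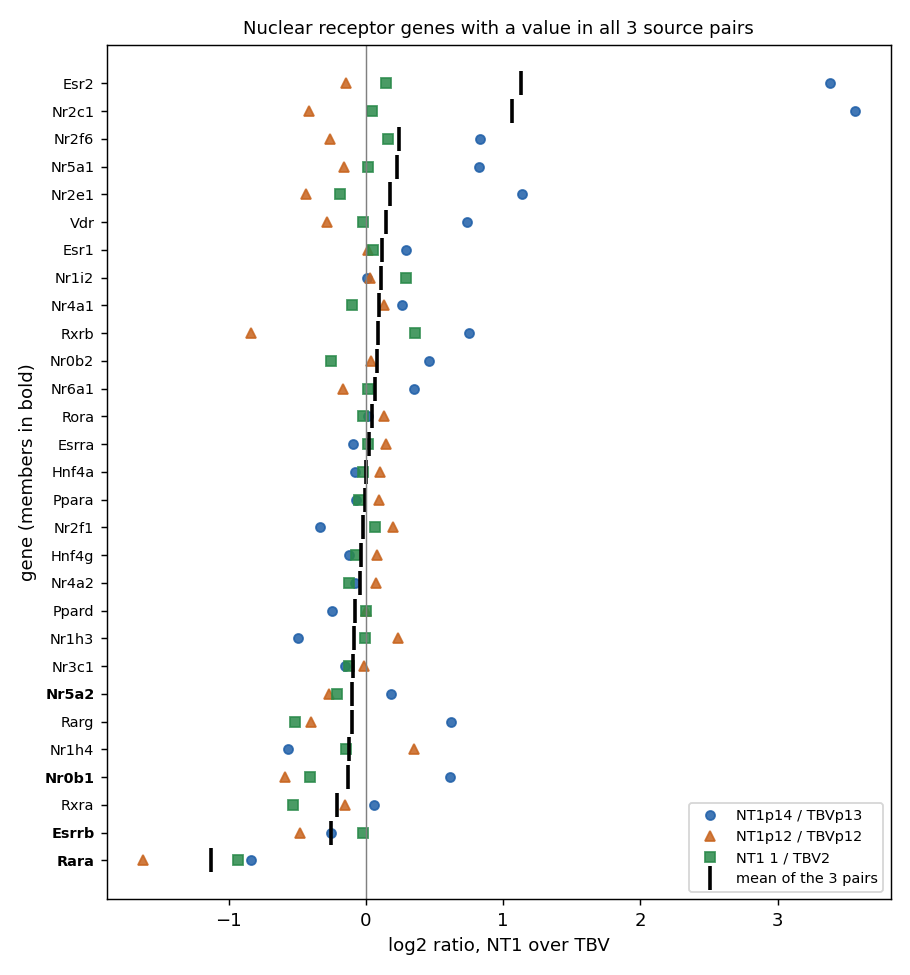
Log2 ratio of NT1 over TBV (horizontal axis) for 29 nuclear receptor genes ordered by their mean (vertical axis, members in bold). Circles, triangles and squares are the 3 source pairs and bars their mean. With the pairs as labelled, Rara lies apart at the low end, and Esr2 and Nr2c1 are high through NT1p14 with TBVp13 alone.

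Retinoic acid genes were set beside Rara. Of 28 listed 8 were measured in all 3 pairs and 0 passed (limma, per gene), with a median of -0.06. Rdh11, a retinal reductase, was at 0.20 ± 0.05 (SD, n = 3) and above 0 on 12 of 13 arrays with its probes averaged, and Crabp2, a carrier of retinoic acid, was at 0.04 ± 0.05. These were the 2 of 8 above 0 in all 3 pairs (25% against 8.86% of all genes), and 0 of the 8 were below 0 in all 3. The 2 Rdh11 probes disagreed, with a mean of 0.30 for probe 265 and 0.02 for probe 14832, which read -0.07 and -0.14 in NT1p14 with TBVp13 and NT1 1 with TBV2. The carrier Fabp5 stood at -0.24 ± 0.58, the transglutaminase Tgm2 at -0.21 ± 0.34, and Aldh1a1, which makes retinoic acid, at 0.15 ± 0.30. The retinoic acid target Cdx1 was at -0.05 ± 0.10 and Cyp26b1, which breaks retinoic acid down, at -0.08 ± 0.19.

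Receptor cofactors were also looked at. Of 30 listed 20 were measured and 0 passed (limma, per gene), with 14 means above 0 and 6 below, against 4006 above and 3972 below of 7978 genes. Their median was below 0 only for NT1p12 with TBVp12, at -0.10, against 0.25 for NT1p14 with TBVp13 and 0.08 for NT1 1 with TBV2 among the 3 independent pairs. The coactivator Pelp1 at 0.41 ± 0.65 (SD, n = 3) had the highest mean. Tbl1x, a part of the Ncor corepressor complex, was at 0.17 ± 0.16, Ppargc1a at 0.15 ± 0.28 and Trip4 at -0.17 ± 0.36. Tbl1x and Pnrc1 were above 0 in all 3 pairs, or 10% against 8.86% of all genes.

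Partners and targets of these receptors in pluripotency included Pou5f1, which lay below 0 in the 3 pairs, at -0.25, -1 and -0.51. It was below 0 on 8 arrays and at 0 on 5, and 11 of its 13 values were whole numbers. Of 30 listed genes 15 were measured and 0 passed (limma, per gene). Below 0 in all 3 pairs were 5 of them (33.3% against 5.72% of all genes), Pou5f1, Zfp42, Fgf4, Klf4 and Utf1. The list was chosen with earlier results of these data known, so this share is no independent evidence. With 1 pair turned it was 3, 1 and 1 of 15 in the same order of pairs. These are 20%, 6.67% and 6.67%, against 14.3%, 22.7% and 4.91% of all probes. Fgf4, a growth factor gene bound by Oct4 and Sox2, was below 0 on all 13 arrays at -0.48 ± 0.17 (SD, n = 3). Klf4 was at -0.32 ± 0.18 and below 0 on 12. Zfp42 had 11 whole numbers among its 13 values. Lefty1, an inhibitor of Nodal signalling, had the highest mean at 0.86 ± 0.80. All 13 of its values were whole numbers, and it was at 0 in NT1p12 with TBVp12. The Sall4 probe itself stood at 0.07, -0.59 and -0.32, and where it lies relative to the mutated part of the gene is not known here. Trophoblast markers (6 measured of 16) had a median of 0.09, with Krt18 (a keratin) at 0.38, Cldn4 (a claudin) at 0.33 and Krt19 at 0.21 above 0 in all 3 pairs, and Lgals3 at -0.07 below 0 in all 3. The 3 above 0 of 6 stand against 8.86% of all genes. With 1 pair turned they were 1, 1 and 0 of 6 in the same order of pairs. Of all probes 16.1%, 18.2% and 7.14% were then above 0 in all 3. This list too was chosen with earlier results known, so its share is no independent evidence. Endoderm markers (9 of 15) had a median of -0.02, with Apoe at -0.23, Apoa1 at -0.22, Lamc1 at -0.15 and Col4a1 at 0.18 farthest from 0.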

How the data were processed

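Mouse total RNA from NT1 and TBV sources was compared on 13 2-colour arrays, grouped by the RNA source named in each channel's label. The deposited table, made by the authors, holds 1 signed value per probe and array, taken here as a log2 ratio of Cy5 over Cy3. Log base, numerator, scanner settings and normalisation are not given in the sources used here. Arrays were centred on their median, and those with TBV in Cy5 were multiplied by -1. Each pair's value is the mean of its 2 dye orientations. Arrays of a pair are technical repeats, so n = 3. For 15973 probes measured in every independent pair, limma 3.58.1 (R 4.3.3) tested the mean against 0 by lmFit and eBayes. Tests were two-sided, adjusted after Benjamini-Hochberg, and called at 0.05. The difference between pairs was fitted on arrays with a dye term. Both fits were tested on simulated data.

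Probes were named from the platform annotation: 11723 had 1 symbol, 806 several and 7676 none. Only symbols held by a probe alone were used. For gene lists the probes of a gene were averaged. The named genes were the members, list genes with the same sign in all 3 pairs or among the 4 largest absolute means of a list, the 3 genes most like each member, Sall4 and Pou5f1. Other list genes were named after their values were seen. Members and lists were chosen with earlier results of these data known. Depth is unknown, and the number of arrays limits the precision. No label says that pairs come from separate clones or cultures, so p-values cover only the spread between these RNA preparations, which may be technical. Alternatives covered replicate unit, dye orientation, centring, scaling, missing and whole values, moderation, pair direction and leaving out pairs or arrays. Figures used matplotlib 3.10.9 in Python 3.11.15.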

Additional observations from a re-analysis of the deposited data

Results flagged for a closer look

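In 7 groups of 4 or 5 arrays, 2 readings of Rara probe 7761 stood far from the rest of their group. In NT1p14 with TBVp13, array 4 read 0 against -1 on the other 4 arrays. In NT1p12 with TBVp12, array 2 read -1 against -2 on the other 3. Chance flags about 1 in 20 such groups of normally spread values, and that rate need not hold for values without decimals. Both readings are whole numbers.

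The ratio of Nr0b1 was higher by 1.20 in NT1p14 with TBVp13 than in NT1p12 with TBVp12 (limma on arrays, adjusted p = 0.0217). Both measured arrays of NT1p14 with TBVp13 were above 0, and all 4 of NT1p12 with TBVp12 below. The ratio of Rara probe 7761 differed between these pairs by 0.92 (limma on arrays, adjusted p = 0.0326), with 0 arrays above 0 in either. All its values there were whole numbers. In both cases the arrays repeat 1 preparation, so the test compares these preparations and not the passages.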

How the results depend on the processing

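The ratios of the 5 tested member probes kept their direction and their side of the threshold in 119 of 131 combinations of probe and alternative setting. Some settings could not change a probe's value, such as robust moderation or leaving out an array without a value for it. Rara at -0.0042 with NT1p12 with TBVp12 turned was also counted as kept. The count therefore does not measure how firm the ratios are. Rara passed on 13 arrays, at -1.15 with the pair as a random block and -1.16 with arrays taken as independent, and in no other setting. Turning NT1p12 with TBVp12 put Esrrb at 0.069 and Nr0b1 at 0.26, and turning NT1 1 with TBV2 put Nr0b1 at 0.14. Leaving out a pair or an array moved Nr0b1 between -0.50 and 0.10. Nr5a2 probe 19027 was at -0.21 with NT1 in Cy5 only, -0.070 on scaled arrays, -0.10 averaged per gene and -0.64 with NT1p14 with TBVp13 turned, and ran from -0.31 to 0.54 with a pair or an array left out. The count of 0 called probes became 3 with the random block and 10 with independent arrays, both of which count technical repeats. No setting that turned, scaled or left out pairs or arrays called a probe.

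The difference of NT1p14 with TBVp13 from NT1p12 with TBVp12 depended on single arrays. Left-out arrays gave 0.98 to 1.42 for Nr0b1, 0.75 to 1.16 for Rara, -0.053 to 3.29 for Nr5a2 probe 19027 and -0.14 to 0.19 for Nr5a2 probe 19667, and 13 to 5002 called probes. On scaled arrays Rara was at 0.80 and no longer passed, and Nr5a2 probe 19667 was at -0.011. The cause was not tested. No paired analysis was possible because the labels give the arrays no shared replicate numbers. Leaving out whole numbers gave no value for Rara probe 7761 and Nr5a2 probe 19027, and requiring all 13 arrays gave none for Nr0b1 and Nr5a2 probe 19027. Counts, passage differences and ranks with a pair turned were added after the data were seen.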
